A study of Homo sapiens with 4 samples.

Results

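The genes described here are 30 members of the cholesterol and fatty acid synthesis pathways, found by gene symbol in deposited tables that list 25317 genes. They comprise 18 genes of the sterol arm, 8 genes of the fatty acid arm, and 4 regulators and transporters. Transcript levels came from RNA sequencing of MCF10A cells, an established human mammary epithelial line that is not tumorigenic. The 4 libraries came from cells infected with a ZsGreen-marked lentivirus (pHIV-ZsGreen) for overexpression of Zeb1, of Snail or of Ovol2, or with the empty vector (EV). Zeb1 and Snail are transcription factors that induce the epithelial-to-mesenchymal transition, and Ovol2 is one that induces the reverse transition. In all 4 groups the fluorescent cells were sorted 6 days after infection, and all cells grew in the same medium with horse serum, epidermal growth factor, cholera toxin and insulin. Each group held 1 library, so no difference below has a replicate check and no p-value of a condition is given.

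Cholesterol is built from acetyl-CoA through mevalonate, squalene and lanosterol, and fatty acids are built from the same acetyl-CoA through malonyl-CoA. The membrane-bound transcription factors SREBP1 and SREBP2, encoded by SREBF1 and SREBF2, switch on most genes of both arms: when the endoplasmic reticulum is low in sterol they are carried to the Golgi and cut, and the freed part enters the nucleus. INSIG proteins hold them back when sterol is plentiful, and growing epithelial cells need both products for their membranes.

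Values are FPKM, that is fragments scaled to transcript length and to the mapped total of the library, and differences are log2 ratios of FPKM + 1, which understates the difference of low genes. A difference was counted from 2-fold upward on that scale, and a gene was compared where at least 1 library of the pair had 1 FPKM, which all 30 members passed in every comparison. Sequencing depth was estimated from what a single fragment adds to a low value, and came to about 34300000 fragments in the Zeb1, 31600000 in the Snail, 24100000 in the Ovol2 and 29100000 in the EV library. The step was sought within a fixed range of values, which bounds the estimate. It rested on 10 olfactory receptor genes in Zeb1, 27 in Snail, 20 in Ovol2 and 4 in EV, so numbers of fragments are approximate. Of the 120 member values, 117 rested on an estimated 100 fragments or more, with a median of 1434. The delivered factors matched the labels: ZEB1 had 17.3 FPKM in the Zeb1 library and 0.260 in EV, SNAI1 had 99.7 in the Snail library and 0.152 in EV, and OVOL2 had 78.3 in the Ovol2 library and 6.32 in EV. The Ovol2 library stood apart. RMRP and RPPH1, both short noncoding RNAs of ribonuclease complexes, took 22.1% of the summed FPKM in Zeb1, 18.7% in Snail, 40.6% in Ovol2 and 24.6% in EV. The summed FPKM of 6 basal mammary epithelial markers was 878 in Zeb1, 2336 in Snail, 324 in Ovol2 and 3271 in EV. Most of it was KRT5, with 771 in Zeb1, 2022 in Snail, 215 in Ovol2 and 2929 in EV. Taken singly, 3 of the 6 were higher in Ovol2 than in Zeb1 and 3 were lower. The sum of 3 mesenchymal markers was 4175 in Zeb1, 675 in Snail, 7.76 in Ovol2 and 107 in EV. Most of that was FN1, with 3982 in Zeb1, 576 in Snail, 6.60 in Ovol2 and 92.7 in EV.

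To show what the promoters of these genes have in common, RefSeq windows of 250 bases before to 50 bases after the start site (build GRCh38.p14) were searched on both strands. The motifs were TCACNCCAC (a sterol regulatory element), CCAAT (bound by NF-Y), GGGCGG (a GC box, bound by Sp1 family factors) and CACGTG (an E-box). The table held 36 windows for 26 of the 30 members. ACAT2, FDFT1, SQLE and FASN had none. The windows shown belong to DHCR7, the sterol gene with the largest difference in the Zeb1 library, to MVK and LSS, which differed in opposite directions in the Ovol2 library, to SCD, the fatty acid gene with the highest level in EV, and to SREBF2, the only member with a TCACNCCAC match. They are read 5′ to 3′ on the strand of the gene, in lower case with every motif match in capitals; on the other strand CCAAT reads ATTGG and GGGCGG reads CCGCCC. DHCR7 is the window chr11:71448344-71448643 on the minus strand, the one of its 2 windows that held matches, MVK is chr12:109573544-109573843 on the plus strand, LSS is chr21:46228725-46229024 on the minus strand, SCD is chr10:100346983-100347282 on the plus strand and SREBF2 is chr22:41832855-41833154 on the plus strand.
DHCR7: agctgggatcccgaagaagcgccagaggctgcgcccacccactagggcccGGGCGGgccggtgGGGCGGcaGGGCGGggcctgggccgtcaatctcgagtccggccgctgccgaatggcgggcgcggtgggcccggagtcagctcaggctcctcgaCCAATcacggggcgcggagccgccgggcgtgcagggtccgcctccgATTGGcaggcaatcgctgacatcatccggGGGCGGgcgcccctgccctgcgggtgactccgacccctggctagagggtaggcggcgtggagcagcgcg
MVK: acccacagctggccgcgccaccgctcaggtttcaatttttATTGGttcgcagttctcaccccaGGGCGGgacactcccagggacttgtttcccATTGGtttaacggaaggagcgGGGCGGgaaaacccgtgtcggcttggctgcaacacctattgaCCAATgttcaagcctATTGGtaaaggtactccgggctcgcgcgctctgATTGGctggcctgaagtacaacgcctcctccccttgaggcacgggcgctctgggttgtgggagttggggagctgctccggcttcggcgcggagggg
LSS: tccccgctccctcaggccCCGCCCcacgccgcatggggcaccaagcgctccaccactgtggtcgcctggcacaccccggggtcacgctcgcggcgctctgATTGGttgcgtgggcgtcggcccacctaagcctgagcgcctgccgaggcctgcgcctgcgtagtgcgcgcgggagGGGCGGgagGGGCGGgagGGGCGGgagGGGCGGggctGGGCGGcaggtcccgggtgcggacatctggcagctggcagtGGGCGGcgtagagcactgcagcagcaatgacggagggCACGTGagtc
SCD: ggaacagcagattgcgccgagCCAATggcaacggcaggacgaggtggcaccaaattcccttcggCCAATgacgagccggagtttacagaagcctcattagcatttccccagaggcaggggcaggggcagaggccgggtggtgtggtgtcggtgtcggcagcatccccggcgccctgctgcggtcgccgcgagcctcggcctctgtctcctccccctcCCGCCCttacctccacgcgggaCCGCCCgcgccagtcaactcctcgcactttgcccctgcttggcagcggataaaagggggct
SREBF2: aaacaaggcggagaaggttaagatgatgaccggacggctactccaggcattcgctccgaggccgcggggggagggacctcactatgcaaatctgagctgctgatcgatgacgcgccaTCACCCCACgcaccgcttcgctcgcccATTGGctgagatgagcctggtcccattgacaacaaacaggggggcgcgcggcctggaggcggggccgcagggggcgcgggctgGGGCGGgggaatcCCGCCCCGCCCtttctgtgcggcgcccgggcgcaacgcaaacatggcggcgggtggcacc

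The DHCR7 window held 2 CCAAT and 4 GC box matches, the MVK window held 5 and 2, the LSS window held 1 and 7 with 1 E-box, and the SCD window held 2 of each. The SREBF2 window held 1 TCACNCCAC, 1 CCAAT and 3 GC box matches. CCAAT was in 25 of the 36 member windows (69.4%), against 35.1% of 13047 windows of genes at 1 FPKM or more and 34.6% of all 35116 windows. GGGCGG was in 32 member windows (88.9%), against 65.8% of the windows of expressed genes and 45.0% of all windows. TCACNCCAC was in 1 member window (2.78%), against 1.02% of expressed-gene windows and 1.13% of all, and CACGTG was in 4 (11.1%), against 9.32% of expressed-gene windows and 7.26% of all. Matches of different motifs overlapped in 0 of the 36 windows. Counted by gene, CCAAT was found for 21 of 26 members (80.8%), against 43.7% of 8979 expressed genes. It was found for 13 of 15 members in the sterol arm and 5 of 7 in the fatty acid arm. Median GC content was 67.8% in the member windows and 64.7% in the windows of expressed genes. A match describes these letters and was not tested as a binding site.

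With Zeb1, 29 of the 30 genes had lower values than with EV, and the whole sterol arm was among them. In all, 14 genes were lower by 2-fold or more, against 8.49% of the 11922 genes compared, and 0 were higher, against 4.52%. The median log2 ratio of the 30 genes was -0.98, while that of all genes compared was -0.09. Another scale gave every library the summed FPKM of EV, counted without RMRP and RPPH1, which multiplied the Zeb1 values by 1.25. The full sums also differed, at 290694 in Zeb1 and 374267 in EV, so this factor does not reflect RMRP and RPPH1 alone. On that scale 28 of the 30 were below EV and 9 were lower by 2-fold or more, against 4.98% of all genes. The share of higher genes among all those past 2-fold was then 62.7%, beside 34.8% as deposited. Summed over the sterol arm, the level was 233 FPKM in Zeb1 and 538 in EV, or 43.4% of EV. Summed over the fatty acid arm, it was 112 FPKM in Zeb1 and 258 in EV, or 43.2%.

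**Figure D1:**
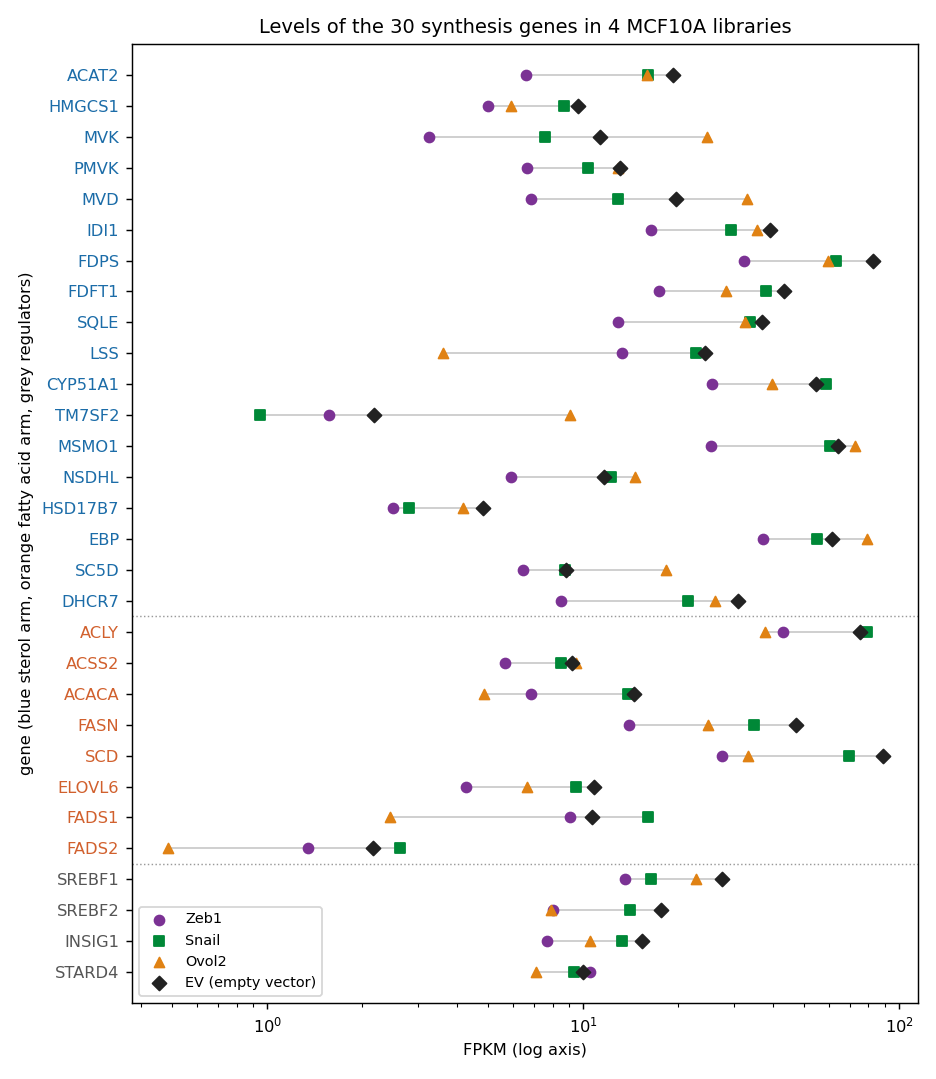
FPKM of each of the 30 genes (log axis) in the Zeb1, Snail, Ovol2 and EV libraries, 1 point per library, with a grey line across the range of each gene; blue names are the sterol arm, orange the fatty acid arm and grey the regulators and transporters. The Zeb1 point is the lowest of the 4 for 22 genes, and LSS, FADS1 and FADS2 have their lowest point in the Ovol2 library.

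The first stretch of the sterol pathway, acetyl-CoA to farnesyl diphosphate, had a median log2 ratio of -1.33 with Zeb1, and 5 of its 7 genes were lower by 2-fold or more. ACAT2, which joins acetyl-CoA units, had 6.58 FPKM in Zeb1, 16.1 in Snail, 16.0 in Ovol2 and 19.2 in EV. HMGCS1, which makes HMG-CoA, had 5.01 in Zeb1, 8.73 in Snail, 5.92 in Ovol2 and 9.66 in EV, and did not reach the 2-fold limit with Zeb1 (-0.83). MVK, mevalonate kinase, had 3.26 in Zeb1, 7.55 in Snail, 24.6 in Ovol2 and 11.3 in EV. The Zeb1 library was the lowest for all of these, by a log2 ratio to EV of -1.42 for ACAT2 and -1.53 for MVK, and for MVK alone among them the Ovol2 library was the highest. PMVK, the next kinase of the pathway, had 6.65 FPKM in Zeb1, 10.4 in Snail, 12.9 in Ovol2 and 13.1 in EV. MVD, the decarboxylase that makes isopentenyl diphosphate, had 6.83 in Zeb1, 12.9 in Snail, 33.1 in Ovol2 and 19.6 in EV. IDI1, the isomerase of that product, had 16.4 in Zeb1, 29.3 in Snail, 35.6 in Ovol2 and 39.1 in EV. The Zeb1 log2 ratios were -0.88 for PMVK, -1.40 for MVD and -1.21 for IDI1, so PMVK stayed inside the 2-fold limit. FDPS, which makes farnesyl diphosphate, was the most abundant of this stretch, with 32.4 FPKM in Zeb1, 63.2 in Snail, 59.5 in Ovol2 and 82.7 in EV, a Zeb1 log2 ratio of -1.33.

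At the squalene and lanosterol steps, FDFT1, squalene synthase, had 17.4 FPKM in Zeb1, 37.8 in Snail, 28.4 in Ovol2 and 43.2 in EV. SQLE, squalene epoxidase, had 12.9 in Zeb1, 33.6 in Snail, 32.5 in Ovol2 and 36.9 in EV. LSS, lanosterol synthase, had 13.3 in Zeb1, 22.7 in Snail, 3.60 in Ovol2 and 24.3 in EV. With Zeb1 the log2 ratio was -1.27 for FDFT1, -1.45 for SQLE and -0.83 for LSS. LSS was the only sterol gene with its lowest value in the Ovol2 library.

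After lanosterol the genes differed more among themselves, with a median Zeb1 log2 ratio of -0.81 over 8 genes and 3 of them lower by 2-fold or more. DHCR7, which makes cholesterol in the last step of one branch, had 8.52 FPKM in Zeb1, 21.4 in Snail, 26.1 in Ovol2 and 31.0 in EV. Its log2 ratio of -1.75 was the lowest of the 30 genes with Zeb1, and the 95% Poisson intervals of counting error alone were 7.93 to 9.14 FPKM in Zeb1 and 29.8 to 32.3 in EV. CYP51A1, lanosterol demethylase, had 25.6 FPKM in Zeb1, 58.5 in Snail, 39.5 in Ovol2 and 54.5 in EV. MSMO1, a sterol methyl oxidase, had 25.3 in Zeb1, 60.4 in Snail, 72.4 in Ovol2 and 64.2 in EV. Both were lower by 2-fold or more with Zeb1, at -1.06 and -1.31, and the other 5 genes were not. NSDHL, a sterol dehydrogenase, had 5.90 FPKM in Zeb1, 12.3 in Snail, 14.6 in Ovol2 and 11.7 in EV. HSD17B7, a sterol ketone reductase, had 2.51 in Zeb1, 2.80 in Snail, 4.17 in Ovol2 and 4.83 in EV. EBP, a sterol isomerase, had 37.0 in Zeb1, 54.8 in Snail, 79.0 in Ovol2 and 61.5 in EV. These 3 had Zeb1 log2 ratios of -0.88, -0.73 and -0.72. SC5D, a sterol desaturase, had 6.46 FPKM in Zeb1, 8.79 in Snail, 18.2 in Ovol2 and 8.84 in EV. TM7SF2, a sterol reductase and the least abundant sterol gene in all libraries but that of Ovol2, had 1.57 in Zeb1, 0.950 in Snail, 9.09 in Ovol2 and 2.17 in EV. For both the Ovol2 library was the highest, and their Zeb1 log2 ratios were the smallest of the arm, -0.40 and -0.31.

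In the fatty acid arm the Zeb1 values were again lower for all 8 genes, 3 of them by 2-fold or more, with a median log2 ratio of -0.89. ACLY, which makes cytosolic acetyl-CoA from citrate, had 43.0 FPKM in Zeb1, 78.9 in Snail, 37.5 in Ovol2 and 75.1 in EV. ACSS2, which makes it from acetate, had 5.65 in Zeb1, 8.48 in Snail, 9.52 in Ovol2 and 9.21 in EV. ACACA, the carboxylase that makes malonyl-CoA, had 6.83 in Zeb1, 13.9 in Snail, 4.84 in Ovol2 and 14.5 in EV. Both ACLY and ACACA had their lowest value with Ovol2, and neither reached the 2-fold limit with Zeb1 on the FPKM + 1 scale (-0.79 and -0.98). Without the added 1, the ratio of EV to Zeb1 was 1.75 for ACLY and 2.12 for ACACA. FASN, fatty acid synthase, had 14.0 FPKM in Zeb1, 34.7 in Snail, 24.9 in Ovol2 and 47.1 in EV. SCD, which makes monounsaturated fatty acids, had 27.6 in Zeb1, 69.5 in Snail, 33.2 in Ovol2 and 88.7 in EV. ELOVL6, a fatty acid elongase, had 4.26 in Zeb1, 9.51 in Snail, 6.66 in Ovol2 and 10.8 in EV. These were the 3 fatty acid genes past 2-fold with Zeb1, at -1.68, -1.65 and -1.17. The polyunsaturated fatty acid desaturases stood apart from them. FADS1 had 9.11 FPKM in Zeb1, 16.1 in Snail, 2.45 in Ovol2 and 10.6 in EV, and FADS2 had 1.34 in Zeb1, 2.64 in Snail, 0.484 in Ovol2 and 2.17 in EV. Their Zeb1 log2 ratios were -0.20 and -0.43, and that of FADS1 was 0.09 at equal summed FPKM without RMRP and RPPH1.

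Of the regulators, SREBF1 had 13.5 FPKM in Zeb1, 16.3 in Snail, 22.8 in Ovol2 and 27.6 in EV, and SREBF2 had 8.03 in Zeb1, 14.0 in Snail, 7.91 in Ovol2 and 17.6 in EV. INSIG1, which retains the SREBPs and is itself one of their targets, had 7.67 in Zeb1, 13.3 in Snail, 10.5 in Ovol2 and 15.4 in EV. With Zeb1 the log2 ratios were -0.98 for SREBF1, -1.04 for SREBF2 and -0.92 for INSIG1, so SREBF2 alone passed the limit. STARD4, a carrier of cholesterol between membranes, was the exception among the 30, with 10.5 FPKM in Zeb1, 9.38 in Snail, 7.09 in Ovol2 and 10.0 in EV.

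**Figure D2:**
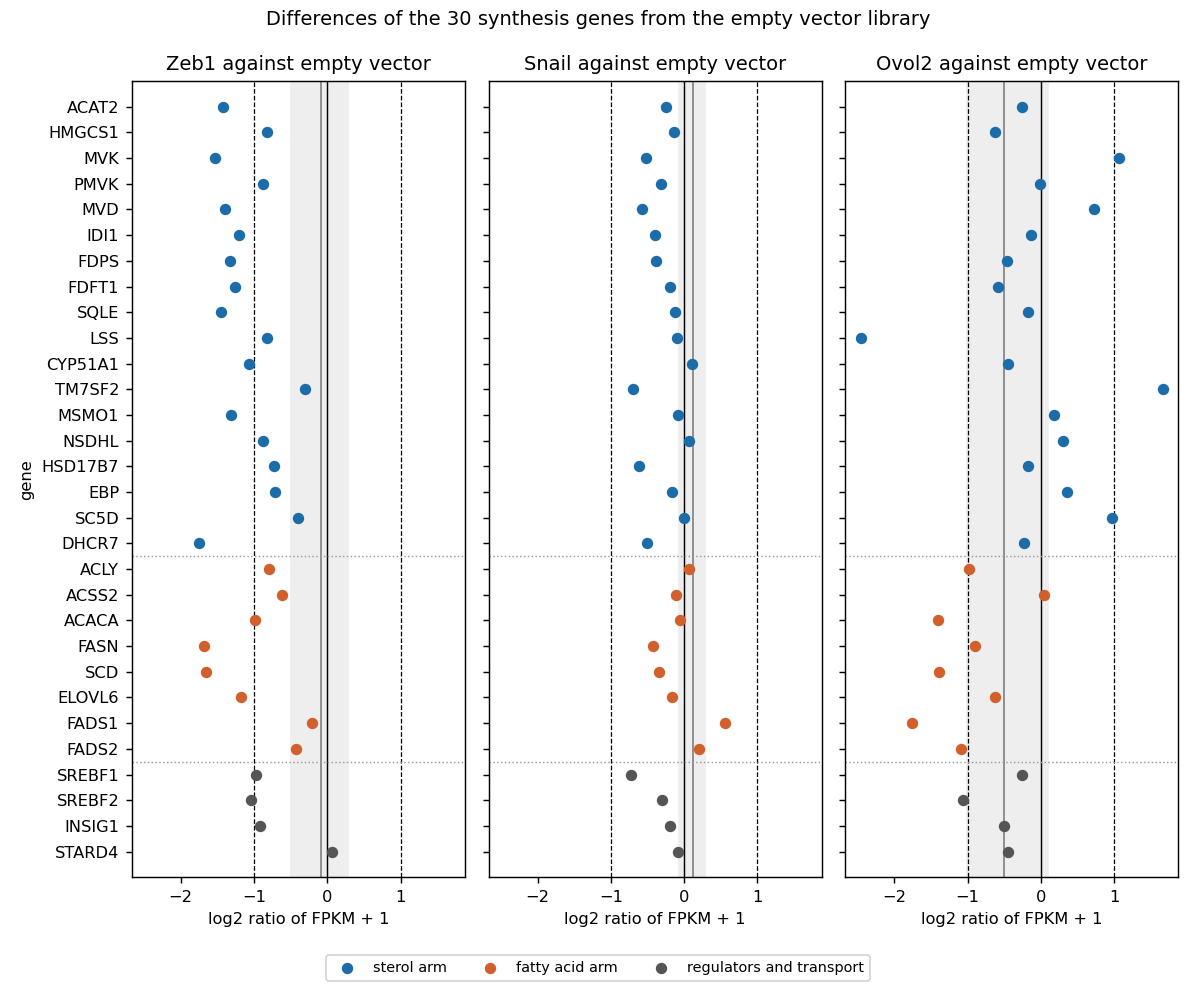
Log2 ratios of FPKM + 1 of each of the 30 genes in the Zeb1, Snail and Ovol2 libraries, each against the EV library, 1 point per gene coloured by arm; the grey band and line are the interquartile range and median of all genes compared, and dashed lines mark the 2-fold limit. With Zeb1, 29 points lie below 0 around a median of -0.98; with Snail all lie within 2-fold; with Ovol2 the fatty acid arm (median -1.04) lies below most of the sterol arm (median -0.15).

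With Snail the same genes stayed close to EV. None of the 30 passed 2-fold on the FPKM + 1 scale: 0 were higher, against 1% of the 11644 genes compared, and 0 were lower, against 1.5%. Both counts were thus near the shares among all genes. Values were below EV for 25 genes, and the median log2 ratio was -0.18, beside 0.12 for all genes compared. When each library was scaled to its upper quartile, 17 of the 30 were below EV, and 56.1% of all genes past 2-fold were higher with Snail, beside 40.1% as deposited. Within the sterol arm the mevalonate stretch had the lowest median, -0.38. The lowest single ratios were those of SREBF1 (-0.72), TM7SF2 (-0.70), HSD17B7 (-0.62) and MVD (-0.57). FADS1 had the highest, 0.55. TM7SF2 was the only member with its lowest value in the Snail library, on an estimated 51.7 fragments (95% Poisson interval 38.6 to 67.8).

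Set directly against Snail, which leaves the EV library out, the Zeb1 values were lower by 2-fold or more for 9 of the 30 genes, against 6.43% of all genes, and higher for 0, against 2.34%. The median was -0.82, beside -0.19 for all genes compared. The arms had nearly the same median, -0.88 for sterol and -0.89 for fatty acid genes. The comparisons of each factor with EV share the EV library, so the position of that library enters all 3 of them.

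With Ovol2 the arms separated. The sterol arm had a median log2 ratio of -0.15 and the fatty acid arm one of -1.04, a difference of 0.88, while the median of all genes was -0.51. The summed sterol level was 515 FPKM in Ovol2 and 538 in EV (95.7% of EV), and the summed fatty acid level was 120 FPKM in Ovol2 and 258 in EV (46.3%). Of the 30 genes 2 were higher by 2-fold or more, against 6.82% of 11812 genes, and 6 were lower, against 25.1%, so the number of lower members was near the share among all genes. In the sterol arm 2 were higher and 1 lower; in the fatty acid arm 0 were higher and 4 lower.

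TM7SF2 (1.67) and MVK (1.06) were the higher genes with Ovol2. The 95% Poisson intervals were 8.20 to 10.1 FPKM in Ovol2 and 1.79 to 2.62 in EV for TM7SF2, and 23.2 to 26.1 FPKM in Ovol2 and 10.4 to 12.2 in EV for MVK, again for counting error only. SC5D (0.97) and MVD (0.72) came next. LSS was the lowest member (-2.46), with intervals of 3.27 to 3.96 FPKM in Ovol2 and 23.5 to 25.2 in EV, so that LSS and TM7SF2 of the same arm lay on opposite sides of EV. The other lower genes were FADS1 (-1.75), ACACA (-1.41), SCD (-1.39), FADS2 (-1.09) and SREBF2 (-1.06). ACLY (-0.98) and SC5D were just inside the limit. FADS2 in the Ovol2 library was the thinnest value of all, an estimated 42.4 fragments.

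The direction of much of the Ovol2 comparison depended on the scale chosen. Relative to the upper quartile of each library the median of all genes with Ovol2 was 0.26, the sterol arm stood at 0.76 and the fatty acid arm at -0.27, and 7 of the 30 members were higher, against 22.8% of all genes, and 2 were lower, against 7.35%. The number of higher members was thus near the share among all genes. Of all genes past 2-fold, 75.7% were then higher with Ovol2, beside 21.4% as deposited. With the upper quartile taken over genes above 0 in at least 1 library, a form added after the first had been seen, those values were 0.06, 0.53 and -0.50, with 5 members higher, against 17.1% of all genes, and 2 lower, against 10.1%, again near the shares among all genes. LSS and FADS1 were the 2 lower members on both of these scales, and TM7SF2, MVK, SC5D, MVD and EBP were higher on both. The difference between the arms was 0.83 or more under each of the scalings tried, and it was positive in each other setting too.

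**Figure D3:**
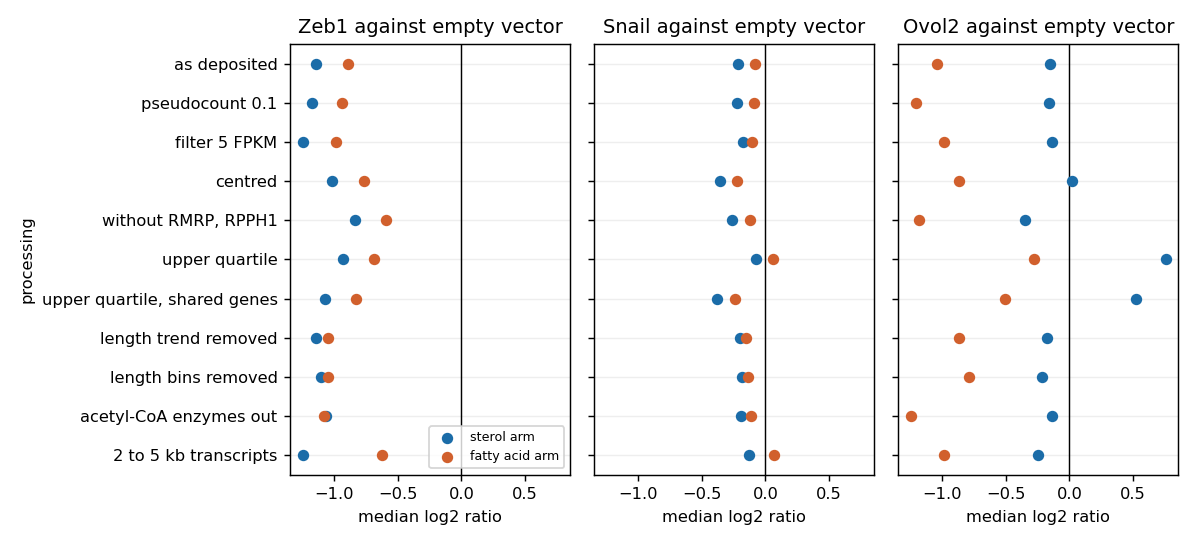
Median log2 ratio of the sterol arm (blue) and the fatty acid arm (orange) in the Zeb1, Snail and Ovol2 libraries against EV, 1 row per way of processing. With Ovol2 the sterol point lies to the right of the fatty acid point in every row, but its side of 0 changes with the scale (-0.15 as deposited, 0.76 at the upper quartile); with Zeb1 both lie below 0 in every row.

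Transcript length moved with the Ovol2 differences. Over the 11211 genes with a length in GENCODE release 29, Spearman's rho between length and the Ovol2 log2 ratio was -0.50, and over the 30 members it was -0.78; these describe genes of the same libraries, which are not independent. For Zeb1 the values were 0.31 and -0.01. The sterol transcripts had a median length of 2362.5 bases and the fatty acid transcripts one of 4432 bases. With a linear trend in log2 length taken out, the Ovol2 arm difference was 0.69, with the medians of 20 length bins taken out it was 0.57, and among transcripts of 2 to 5 kb (10 sterol and 5 fatty acid genes) it was 0.73. LSS (-2.10), FADS1 (-1.45), SCD (-1.03) and TM7SF2 (1.20) kept more than 2-fold after the bin medians were removed, while MVK (0.64), ACACA (-0.82), FADS2 (-0.91) and SREBF2 (-0.64) did not, and FDPS passed the limit (-1.002). The part of length in the Ovol2 result was not tested beyond these values.

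**Figure D4:**
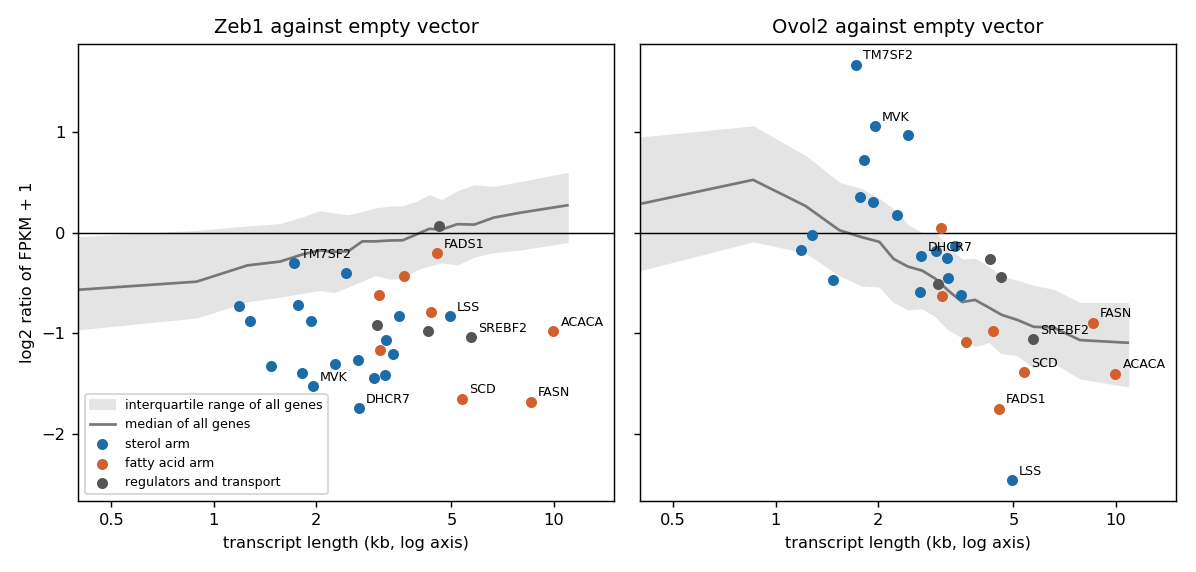
Log2 ratio of FPKM + 1 against transcript length (kb, log axis) for the Zeb1 and Ovol2 libraries against EV, with the 30 genes as points coloured by arm and the median and interquartile range of all genes in 20 length bins in grey. With Ovol2 the grey median declines with length, LSS and FADS1 lie below the band and TM7SF2 and MVK above it; with Zeb1 most sterol points lie below the band, and TM7SF2 and SC5D lie within it.

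Between Ovol2 and Zeb1 the sterol arm differed most. Ovol2 values were higher by 2-fold or more for 11 of the 30 genes, against 14.4% of all genes, and all 11 were sterol genes; 2 were lower, against 28.8%. The sterol median was 1.12 and the fatty acid median 0.04, beside -0.43 for all genes. MVK had 24.6 FPKM with Ovol2 and 3.26 with Zeb1, a ratio of 7.55. Against Snail, Ovol2 values were higher by 2-fold or more for 3 members, against 8.83% of all genes, and lower for 6, against 32.4%. There the sterol median was 0.27 and the fatty acid median -1.05. Medians and counts of these direct comparisons, and of Zeb1 with Snail, are on the deposited scale only. The other scales and the length adjustments were run against EV alone, so their effect here was not tested. Upper quartile factors were 1.91 for Ovol2 and 1.16 for Zeb1. Per doubling of length, the log2 ratio to EV changed by -0.26 with Ovol2 and 0.15 with Zeb1.

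Ordered over the 4 libraries, the lowest value was in Zeb1 for 22 of the 30 genes, in Snail for 1, in Ovol2 for 7 and in EV for 0. Among 12388 genes at 1 FPKM or more in any library the lowest value was in Zeb1 for 29.4%, in Snail for 4.63%, in Ovol2 for 59.9% and in EV for 6.03%. The Zeb1 library held the lowest value of 16 of 18 sterol genes and of 4 of 8 fatty acid genes. The highest value was in Zeb1 for 1 gene (STARD4), in Snail for 4 (CYP51A1, ACLY, FADS1 and FADS2), in Ovol2 for 8 and in EV for 17, against 26% of all genes in Zeb1, 36.4% in Snail, 22.2% in Ovol2 and 15.4% in EV. Of the 8 highest with Ovol2, 7 were sterol genes: MVK, MVD, TM7SF2, MSMO1, NSDHL, EBP and SC5D. At the upper quartile, which multiplied every Ovol2 value by 1.91, 23 members were highest with Ovol2 and 2 with EV. The shares of all genes given above are on the deposited scale and are no background for these counts.

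The authors' deposited tables carry adjusted p-values from single libraries, which do not measure the spread between cultures. Below 0.05 they held 1 member as higher and 29 as lower with Zeb1, against 39.7% and 38.3% of all genes. The shares in this paragraph are over 25317 genes with no expression filter, unlike those beside the 2-fold counts. With Snail the authors' deposited table had 3 higher and 23 lower, against 55% and 26.1%. With Ovol2 the authors' deposited table had 7 higher and 21 lower, against 37.1% and 49.3%.

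In the pathways around the 30 genes few passed 2-fold with Zeb1, and the counts are to be read against the shares of all genes: 4.52% higher and 8.49% lower with Zeb1, 1% and 1.5% with Snail, and 6.82% and 25.1% with Ovol2. The 5 genes that carry and cut the SREBPs had a median of 0.18 with Zeb1, 0.09 with Snail and -0.82 with Ovol2, and 1 of them passed 2-fold: MBTPS1, the first protease, had 7.79 FPKM in Ovol2 and 29.4 in EV (-1.79). The prenyl branch, which uses farnesyl diphosphate for isoprenoids, had a median of -0.41 with Zeb1 over 11 genes. There PDSS1, which makes the coenzyme Q tail, was lower with Zeb1 (1.28 FPKM, against 4.37 in EV), and ICMT, which methylates prenylated proteins, was lower with Ovol2 (11.6 FPKM, against 25.2 in EV).

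Of 16 other fatty acid and glycerolipid genes, 1 was higher with Zeb1 and 0 lower. It was GPAM, the first acyltransferase of glycerolipid synthesis, at 15.9 FPKM in Zeb1 and 3.43 in EV. With Snail 2 were higher: GPAM, at 12.6 FPKM in Snail and 3.43 in EV, and the elongase ELOVL5, at 52.4 in Snail and 19.0 in EV. With Ovol2 3 were higher and 5 lower, the lower ones near the share of 25.1% among all genes. The 3 largest were ACSL4, an acyl-CoA synthetase (1.67 FPKM in Ovol2, 24.5 in EV), LPIN1, a phosphatidate phosphatase (1.92 in Ovol2, 13.0 in EV), and ELOVL5 (4.18 in Ovol2, 19.0 in EV). Sterol storage and efflux genes had 1 past 2-fold, SOAT1, which esterifies cholesterol (0.651 FPKM in Ovol2, 6.37 in EV). Of 11 fatty acid oxidation genes 0 passed with Zeb1 or Snail and 2 were lower with Ovol2, ACADM (5.36 FPKM in Ovol2, 13.9 in EV) and HADHA (28.4 in Ovol2, 57.8 in EV).

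Markers of other cell types were low apart from single genes. The summed FPKM of 5 adipocyte markers was 16.2 in Zeb1, 41.4 in Snail, 718 in Ovol2 and 82.8 in EV, and FABP4, a fatty acid carrier, made up 15.9 of it in Zeb1, 41.1 in Snail, 718 in Ovol2 and 82.8 in EV. The 3 immune markers summed to 4.88 in Zeb1, 2.25 in Snail, 5.10 in Ovol2 and 1.76 in EV, nearly all CD68. Endothelial markers summed to at most 0.211. Whether a shift in the makeup of the sorted cells had a part in the pathway's values was not tested, and fewer cells of a kind cannot be told apart from less RNA per cell.

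Some members share sequence with other genes, and the kit does not mark strand. ACAT2 overlaps SOD2 on the opposite strand by 1106 bases in GENCODE release 29, and SOD2 had 557 FPKM in Zeb1, 239 in Snail, 24.8 in Ovol2 and 138 in EV. FADS1 and FADS2 overlap each other by 142 bases, MVK overlaps MMAB by 69 bases and STARD4 overlaps STARD4-AS1 by 124 bases. STARD4-AS1 had 3.51 FPKM in Zeb1, 0.596 in Snail, 0.077 in Ovol2 and 0.422 in EV. Longer opposite-strand overlaps included 703 bases for HMGCS1, 476 for FDPS, 448 for LSS and 397 for ACAT2 with TCP1. Nothing in the sources used here says how reads there were divided, so these values carry that uncertainty.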

How the data were processed

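Per the submitters' processing notes, TopHat, Cufflinks, Cuffdiff and the hg19 build were used; versions and strand setting are not given in the sources used here. Tables from the authors numbered 3, each with the EV library beside 1 factor library, and the EV values were identical in all 3. No header names the unit of the expression values, and the deposited values were taken as FPKM. Per the file headers, each table also holds the authors' signed fold, a linear score of size and direction, and their p-value and adjusted p-value.

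Symbols on more than 1 row (43 extra rows) were added up. Log2 ratios used a pseudocount of 1 FPKM and genes with 1 FPKM in at least 1 of the compared libraries. With 1 library per group no test was made; calls are differences of 2-fold or more. Numbers of fragments were estimated from the steps of single-transcript olfactory receptor genes. Poisson intervals (95%) cover counting error only and leave out the error of the estimated depth. Lengths came from GENCODE release 29 and promoters from RefSeq (GRCh38.p14), matched by symbol; no coordinates of the deposited files were used. Python 3.11.15, numpy 2.4.6, pandas 2.3.3 and scipy 1.17.1 were used, and the steps were tested on simulated data.

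All 30 members are named. Other genes are the 3 delivered factors and up to 3 per pathway list by size past 2-fold. KRT5, FN1, FABP4, CD68, SOD2, TCP1, MMAB and STARD4-AS1 were named after their values were seen. Members and lists were chosen with earlier results of these data known. The upper quartile scaling was first taken over each library's own genes above 0; a second form, over genes above 0 in at least 1 library, was added after the first form's results had been seen, and both are reported.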

Additional observations from a re-analysis of the deposited data

How the results depend on the processing

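With 1 library per group, nothing here measures the spread between cultures, and the Ovol2 results in particular move with scaling. A log2 value was taken to move at a shift of 0.25 or more and a count at more than 1.5 times. No paired analysis was possible because each group holds 1 library. Alternatives for single members numbered 802 values, of which 692 were counted as the same. For called members that meant still past 2-fold in the same direction, and for others a shift below 0.25. Changing or dropping the expression filter cannot move a member's ratio, so those values were the same by design. Centring took off a constant of -0.12 with Zeb1, 0.14 with Snail and -0.17 with Ovol2. Each is smaller than 0.25, so centring could only carry a member across the 2-fold limit. The 692 include such values and do not measure stability by themselves. Of the 802 values, another 31 dropped inside the 2-fold limit, 20 passed it and 59 moved by 0.25 or more inside it. Of the called members 0 changed sign.

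With a 1.5-fold limit, members higher and lower were 4 and 11 with Ovol2 (12.7% and 46.1% of all genes), 25 were lower with Zeb1 (21.3% of all genes) and 3 lower with Snail (4.36%). By the authors' deposited adjusted p-values they were 7 and 21 with Ovol2, 3 and 23 with Snail, and 1 and 29 with Zeb1. At a pseudocount of 0.1 FPKM 1 was lower with Snail. Scaling to equal summed FPKM without RMRP and RPPH1 moved the median of all genes to 0.19 with Zeb1 (-0.09 as deposited). There 9 members were lower with Zeb1, and its sterol and fatty acid medians were -0.83 and -0.59. On the same scale 1 member was higher with Ovol2, and 3 were lowest in Snail.

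At the upper quartile of each library's own genes above 0 (factor 1.91 for Ovol2), the Ovol2 fatty acid median was -0.27, its sterol median 0.76, 7 members were higher and 2 lower, members highest were 0 in Zeb1, 23 in Ovol2 and 2 in EV, and members lowest were 3 in Ovol2 and 1 in EV. At the upper quartile over genes above 0 in at least 1 library (factor 1.62), added later, the Ovol2 fatty acid median was -0.50 and its sterol median 0.53, 5 members were higher and 2 lower, members highest were 0 in Zeb1, 2 in Snail, 20 in Ovol2 and 8 in EV, and members lowest were 3 in Snail and 3 in Ovol2. Among all genes past 2-fold with Ovol2, 75.7% were higher in the first form and 62.9% in the second, against 21.4% as deposited. The cause was not tested. The shares of all genes highest or lowest in each library were not counted at the upper quartile or without RMRP and RPPH1. The counts of members highest or lowest there have no background.

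With the linear length trend removed, 1 member was higher and 3 were lower with Ovol2 (5.04% and 20.7% of all genes). With the medians of length bins removed, an alternative added later, 1 was higher with Ovol2, its fatty acid median was -0.78 and its arm difference 0.57. Among transcripts of 2 to 5 kb, also added later, the Zeb1 fatty acid median was -0.62 and the Zeb1 arm difference -0.62. That difference, -0.25 as deposited, was 0.013 without the acetyl-CoA enzymes ACAT2, ACLY and ACSS2, so Zeb1 gave no stable order of the arms.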
